A study of Mus musculus with 6 samples.

Results

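The 10 genes described here encode chaperones, folding enzymes and regulators of the endoplasmic reticulum (ER), the compartment in which secreted and membrane proteins fold: Hspa5, Hsp90b1, Calr, Pdia4, Pdia6, Dnajb9, Sdf2l1, Manf, Xbp1 and Herpud1. They were taken by symbol from the 19946 genes with a row (probe set) of their own in the value table, and all 10 were found, on 11 rows. Pdia4 has 2 rows, and its brighter row stands for it. The samples are 6 Affymetrix arrays of A3-1, a mouse embryonic stem (ES) cell line grown with serum and LIF. One group was left untreated, another received a control siRNA that targets green fluorescent protein (siGFP), and the third received one that targets Lin28a (siLin28a). Each siRNA was present for 48 h, each is 1 duplex, and each group has 2 arrays. Untreated cells received no siRNA at all, so siGFP against untreated compares the whole procedure of siRNA treatment with none. Nothing in the labels tells if replicates were grown as separate cultures, so p-values here reflect the spread between arrays alone, which may be technical.

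When unfolded proteins accumulate in the ER, 3 sensors in its membrane start the unfolded protein response: IRE1, which splices the Xbp1 transcript, ATF6, which is cut and moves to the nucleus, and PERK, which slows translation and raises the factor ATF4. Spliced XBP1 and ATF6 raise transcripts of ER chaperones and of proteins that export misfolded chains for degradation. Some of these transcripts, among them Hspa5, are widely used as readouts of ER stress.

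Values are log2 expression after RMA, rounded to 0.1, so 1 unit is a doubling, and a difference of 0.1 is the smallest step the table can show. The median over all rows was 5.2 or 5.3 in every array. The target Lin28a was at 9.1 and 9.4 in untreated, 9.1 and 9.4 in siGFP and 7.4 in each siLin28a array. The 9 ES cell markers checked (Pou5f1, Nanog and others) had medians between 10.9 and 11.4 in the 6 arrays, and the 9 markers of feeder fibroblasts had medians of 5.5 or 5.6, with the highest, Thy1, between 6.6 and 7.1. The 8 primitive endoderm markers had medians between 5.0 and 5.1, while the basement membrane gene Lama1 was between 7.1 and 7.8 and Sparc between 8.9 and 9.9. All 9 ES cell markers had a lower mean with siLin28a than with siGFP, with a median log2 fold change of −0.30. Their part in the results below was not tested. The arrays measure bulk RNA, in which fewer cells of a type and less RNA per cell cannot be told apart.

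The promoters of these genes are known for DNA elements that bind the factors of this response, and those with a match to such an element are shown. RefSeq start sites (GRCm38.p6) were given for 9 of the 10 genes, each with 250 bases before and 50 after the start. The ER stress element was searched on both strands as CCAAT, 9 bases of any kind and CCACG, its second form (ERSE-II) as ATTGG, 1 base of any kind and CCACG, the XBP1 and ATF6 motif (UPRE) as TGACGTGG or TGACGTGA, and the ATF4 motif (CARE) as TGATGNAA. The ER stress element includes the CCAAT box of the factor NF-Y. In the lines that follow, each sequence reads 5′ to 3′ along the gene's own strand, and capitals mark matches.

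Hspa5, chr2:34771840-34772139, plus strand: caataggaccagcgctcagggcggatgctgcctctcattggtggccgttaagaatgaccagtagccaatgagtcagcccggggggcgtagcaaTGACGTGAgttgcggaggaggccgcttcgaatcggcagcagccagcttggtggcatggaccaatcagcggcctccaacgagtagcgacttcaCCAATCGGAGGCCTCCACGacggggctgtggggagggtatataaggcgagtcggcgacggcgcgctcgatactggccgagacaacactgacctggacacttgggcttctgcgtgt
Hsp90b1, chr10:86705395-86705694, minus strand: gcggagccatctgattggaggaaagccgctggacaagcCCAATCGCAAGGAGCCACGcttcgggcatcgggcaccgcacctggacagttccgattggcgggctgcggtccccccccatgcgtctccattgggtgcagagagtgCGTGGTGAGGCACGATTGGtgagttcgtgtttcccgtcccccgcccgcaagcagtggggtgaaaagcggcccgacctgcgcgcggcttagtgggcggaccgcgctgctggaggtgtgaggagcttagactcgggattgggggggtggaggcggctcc
Calr, chr8:84846882-84847181, minus strand: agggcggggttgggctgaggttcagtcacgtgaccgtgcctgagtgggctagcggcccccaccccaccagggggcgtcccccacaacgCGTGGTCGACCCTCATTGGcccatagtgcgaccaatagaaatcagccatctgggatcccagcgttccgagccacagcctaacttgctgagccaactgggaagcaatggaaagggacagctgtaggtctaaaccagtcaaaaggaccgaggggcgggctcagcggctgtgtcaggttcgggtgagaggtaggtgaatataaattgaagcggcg
Pdia6, chr12:17266339-17266638, plus strand: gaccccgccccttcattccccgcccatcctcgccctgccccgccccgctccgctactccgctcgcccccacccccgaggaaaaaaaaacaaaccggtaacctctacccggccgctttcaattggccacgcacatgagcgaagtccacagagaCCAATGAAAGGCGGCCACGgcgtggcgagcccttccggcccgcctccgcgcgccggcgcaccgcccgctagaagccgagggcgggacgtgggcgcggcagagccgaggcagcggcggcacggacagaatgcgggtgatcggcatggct
Herpud1, chr8:94386179-94386478, plus strand: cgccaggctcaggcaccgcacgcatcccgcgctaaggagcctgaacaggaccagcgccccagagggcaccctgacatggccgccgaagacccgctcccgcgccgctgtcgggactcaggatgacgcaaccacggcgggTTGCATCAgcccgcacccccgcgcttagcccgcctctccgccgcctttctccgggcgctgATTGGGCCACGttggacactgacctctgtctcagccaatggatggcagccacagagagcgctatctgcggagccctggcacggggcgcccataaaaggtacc

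Hspa5 had 1 ER stress element, beginning 65 bases before the start, and a UPRE match beginning 157 bases before it. Hsp90b1 had 2 ER stress elements, 1 on each strand, beginning 212 and 107 bases before the start. Calr had 1 beginning 162 bases before it, on the opposite strand, and Pdia6 had 1 beginning 98 bases before it. Herpud1 had none of these but had an ERSE-II, beginning 52 bases before the start, and a CARE match on the opposite strand, beginning 112 bases before it. None of these motifs matched in the windows of Dnajb9, Pdia4, Sdf2l1 and Xbp1. The ER stress element was present in 4 of the 9 windows, against 37 of 27025 genes in the whole table (0.137%), ERSE-II in 1 of 9 against 12 of 27025 (0.0444%), and the CARE in 1 of 9 against 1219 of 27025 (4.51%). UPRE matches ending in G were in the windows of 193 genes (0.714%) and those ending in A in those of 137 genes (0.507%). Among 15 genes of the PERK and ATF4 branch, 0 had the ER stress element and 7 had the CARE. The promoters of these genes were already known for such elements, so these shares are a description and no independent evidence about the genes. A match is a run of letters and does not show that a factor binds. The counts are of exact matches, and forms that depart from these patterns were not searched. A window without a match is therefore not shown to lack an element.

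In siGFP against untreated cells, which asks what accompanied siRNA treatment itself, all 10 genes had a higher mean with siGFP, by 0.05 to 0.60 on the log2 scale, with a median of 0.20. The median over all 23410 rows tested was 0.00. The comparison of siLin28a against siGFP asks what accompanied the lowered Lin28a when siRNA was given to both groups. There 9 genes had a lower mean with siLin28a, Manf was equal, and the median was −0.175, from −0.40 to 0.00. These comparisons share the siGFP arrays, so a high siGFP value moves them in opposite directions. In siLin28a against untreated cells 5 genes had a higher mean, 3 a lower and 2 an equal one, with a median of 0.025, where 41.9% of all rows were higher and 46.7% lower. None of the 10 genes passed the threshold of an adjusted p under 0.05 in any comparison by limma, and neither did any other row, so percent called was 0 in each. The siRNA target Lin28a was among the rows not called, with a log2 fold change of −1.85 in siLin28a against siGFP (adjusted p 0.512 by limma). A gene not called here is therefore not shown to be unchanged. At an unadjusted p under 0.05, 949 rows passed in siLin28a against siGFP, 825 in siGFP against untreated and 1508 in siLin28a against untreated, and Dnajb9, lower in siLin28a against siGFP as 2.26% of all rows were at this p, was the only one of the 10 genes among them. With so few arrays the smallest p of a two-sided exact permutation test would be 0.333.

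The direction of these counts was set against that of all rows. In siGFP against untreated, 44.4% of all rows and 42.5% of the 7719 rows in the genes' own range of mean level were higher with siGFP, against 10 of the 10 genes. In siLin28a against siGFP, 49.6% of all rows and 66% of rows in that range were lower with siLin28a, and the median of the latter was −0.10, against −0.175 for the 10 genes. The upper quartile moved with this: it was 7.2 in untreated and siGFP arrays, 7.0 in siLin28a replicate 1 and 7.1 in siLin28a replicate 2. With a further quantile normalization the median of the 10 genes was −0.0896 and after cyclic loess it was −0.0905, with 9 genes lower and Manf higher in each. Leaving out siGFP replicate 2 gave −0.075 with 8 genes lower, and leaving out siLin28a replicate 1 gave −0.10 with 6 genes lower. In siGFP against untreated the median was 0.10 without siGFP replicate 2, with 9 genes higher and 1 lower. Without siGFP replicate 1, 8 genes were higher, 1 lower and 1 equal. Without untreated replicate 1, 9 were higher and 1 equal, and without untreated replicate 2, 9 were higher and 1 lower.

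**Figure D1:**
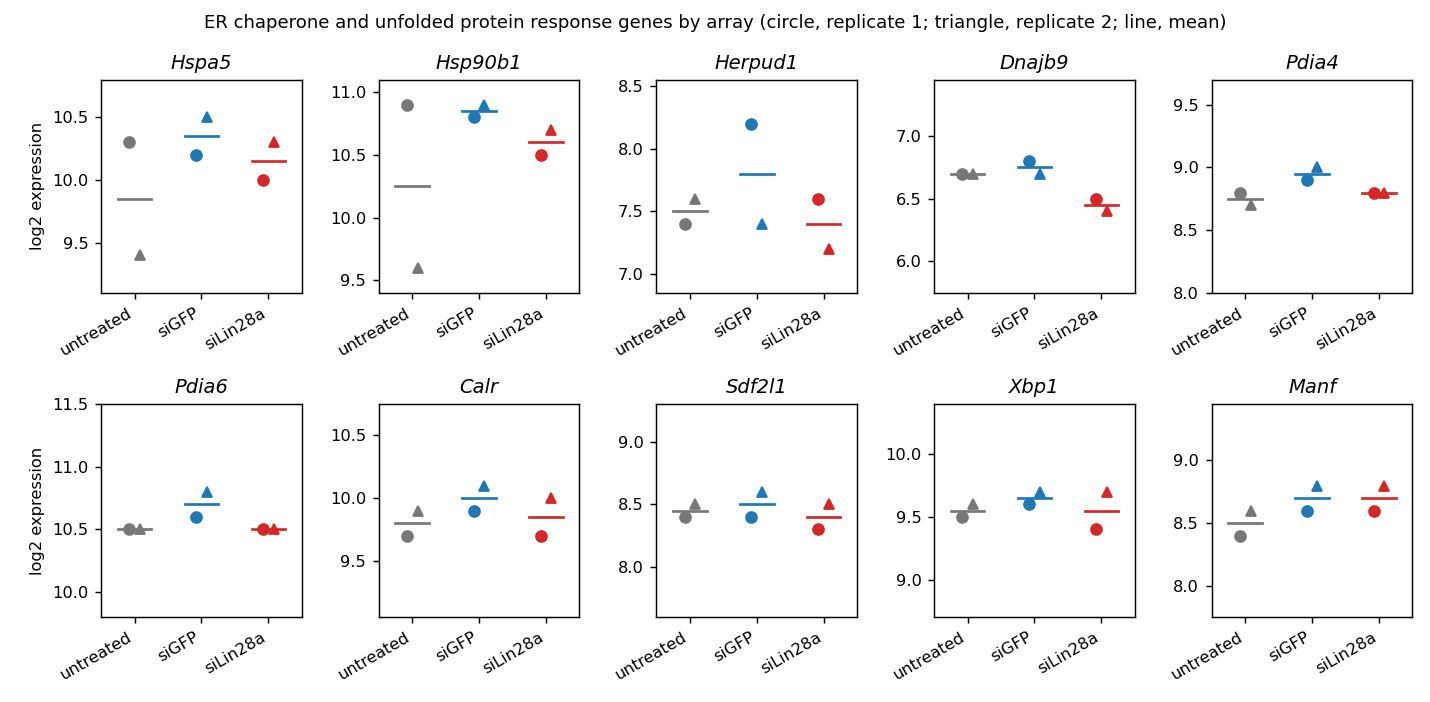
Log2 expression of the 10 genes in each of the 6 arrays, by group, with circles for replicate 1, triangles for replicate 2 and a line for the mean of a group; every panel spans the same number of log2 units. Hspa5 and Hsp90b1 were low in untreated replicate 2, at 9.4 and 9.6, and Herpud1 was high in siGFP replicate 1, at 8.2, while the other 7 genes spanned 0.3 or 0.4.

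Hspa5 (BiP), the ER chaperone of the Hsp70 family that also holds the 3 sensors inactive, was at 10.3 and 9.4 in untreated cells, 10.2 and 10.5 with siGFP and 10 and 10.3 with siLin28a. Untreated replicate 2 stood 0.9 below replicate 1, and the other 5 arrays lay within 0.5 of each other. The log2 fold change was 0.50 in siGFP against untreated (SE 0.30, n = 2 per group, 95% interval −0.24 to 1.24, adjusted p 0.961 by limma), and it was 0.05 without untreated replicate 2 and 0.95 without untreated replicate 1. In siLin28a against siGFP it was −0.20 (95% interval −0.94 to 0.54, adjusted p 0.953 by limma), and −0.05 without siGFP replicate 2 or without siLin28a replicate 1. The siRNA groups overlapped.

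Hsp90b1 (GRP94), the Hsp90 chaperone of the ER, was also lowest in untreated replicate 2. It was at 10.9 and 9.6 in untreated cells, 10.8 and 10.9 with siGFP and 10.5 and 10.7 with siLin28a. The log2 fold change of siGFP against untreated was 0.60 (SE 0.39, 95% interval −0.35 to 1.55, adjusted p 0.961 by limma), and it was −0.05 without untreated replicate 2, so that its direction rested on that array. The siLin28a arrays lay below both siGFP arrays, with a log2 fold change of −0.25 (SE 0.39, adjusted p 0.953 by limma). The spread in this SE is shared with the untreated arrays: fitted on only the 4 arrays compared, the SE was 0.11 and the adjusted p 0.706 by limma, the lowest over the alternatives, which ran up to 1. For Hspa5 the SE of the same comparison went from 0.30 to 0.18. A gap between the untreated arrays of at least 0.9 with replicate 1 higher was present in 315 of 23410 rows (1.35%), and 1 of at least 1.3 in 48 rows (0.205%). The promoters of both genes, printed above, hold matches to the ER stress element, as do those of Calr and Pdia6. In untreated replicates 1 and 2, Calr was at 9.7 and 9.9, with replicate 2 the higher, and Pdia6 was at 10.5 in each. Of the 10 genes, 3 were higher in untreated replicate 1 and 5 in untreated replicate 2. Whether the elements have a part in these values was not tested.

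Calr, a lectin chaperone that binds glycoproteins and calcium, was at 9.7 and 9.9 in untreated cells, 9.9 and 10.1 with siGFP and 9.7 and 10 with siLin28a. All 3 groups touched or overlapped. The log2 fold change was 0.20 in siGFP against untreated (SE 0.16) and −0.15 in siLin28a against siGFP (SE 0.16).

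The protein disulfide isomerases Pdia4 and Pdia6, which form and rearrange disulfide bonds, were the 2 genes whose siGFP arrays lay above all others. Pdia4 was at 8.8 and 8.7 in untreated cells, 8.9 and 9.0 with siGFP and 8.8 in each siLin28a array. Pdia6 was at 10.5 in each untreated array, 10.6 and 10.8 with siGFP and 10.5 in each siLin28a array. Each had a log2 fold change of 0.20 in siGFP against untreated (SE 0.12 for each). In siLin28a against siGFP they had −0.15 and −0.20 (SE 0.12 for each, adjusted p 0.953 by limma), and in siLin28a against untreated 0.05 and 0.00. The dimmer Pdia4 row was at 5.0 in each siGFP array, 5.0 and 5.5 in untreated cells and 5.2 and 5.0 with siLin28a, and its log2 fold changes had the opposite sign in each comparison (−0.25 in siGFP against untreated, 0.10 in siLin28a against siGFP and −0.15 in siLin28a against untreated).

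Dnajb9 (ERdj4), a co-chaperone of Hspa5 and a known target of spliced XBP1, had the smallest p of the 10 genes in siLin28a against siGFP. It was at 6.7 in each untreated array, 6.8 and 6.7 with siGFP and 6.5 and 6.4 with siLin28a. Both siLin28a arrays lay below the 4 others. The log2 fold change was −0.30 against siGFP (SE 0.12, 95% interval −0.58 to −0.02, unadjusted p 0.0399 and adjusted p 0.953 by limma) and −0.25 against untreated cells (adjusted p 0.776 by limma). Without any 1 array it stayed between −0.35 and −0.25 against siGFP and between −0.30 and −0.20 against untreated cells. Against siGFP it was −0.25 (SE 0.127) with a further quantile normalization, −0.257 (SE 0.135) after cyclic loess and −0.30 (SE 0.143) with a robust prior. These SEs are larger than that of the main fit, and 95% intervals were not taken for them, so an interval without 0 is shown for the main fit only. Between siGFP and untreated cells the log2 fold change of Dnajb9 was 0.05, the smallest of the 10 along with Sdf2l1. Non-overlap with siLin28a lower than siGFP was seen in 4 of the 10 genes (Dnajb9, Hsp90b1, Pdia4 and Pdia6), against 11.8% of all rows and 16.7% of rows in the genes' range of level. Non-overlap with siGFP higher than untreated was seen in 2 of 10 (Pdia4 and Pdia6), against 9.22% of all rows and 8.91% of rows in that range. In siLin28a against untreated, Dnajb9 was the only gene of the 10 without overlap, and 12.6% of all rows lay lower without overlap.

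Sdf2l1, a partner of Hspa5 in the chaperone complex, was at 8.4 and 8.5 in untreated cells, 8.4 and 8.6 with siGFP and 8.3 and 8.5 with siLin28a, and the groups overlapped throughout. Its log2 fold changes were 0.05 in siGFP against untreated and −0.10 in siLin28a against siGFP (SE 0.14 for each). Manf, a secreted and ER-resident protein that is induced by ER stress and protects cells, was at 8.4 and 8.6 without siRNA and at 8.6 and 8.8 in each siRNA group. It was the gene with no difference between the siRNA groups, a log2 fold change of 0.00 with a 95% interval of −0.36 to 0.36. With either siRNA it was 0.20 above untreated cells (SE 0.15, 95% interval −0.16 to 0.56).

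Xbp1, the transcription factor whose mRNA IRE1 splices, was at 9.5 and 9.6 in untreated cells, 9.6 and 9.7 with siGFP and 9.4 and 9.7 with siLin28a. The log2 fold change was 0.10 in siGFP against untreated and −0.10 in siLin28a against siGFP (SE 0.14 for each, 95% interval of the latter −0.45 to 0.25), and the latter was 0.05 without siLin28a replicate 1. The gene has 1 row, which gives no separate value for the spliced form.

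Herpud1, a membrane protein of ER-associated degradation, differed from the chaperones in the array that stood out. It was at 7.4 and 7.6 in untreated cells, 8.2 and 7.4 with siGFP and 7.6 and 7.2 with siLin28a. SiGFP replicate 1 lay at least 0.6 above every other array, and replicate 2 of the same group lay within the range of the untreated and siLin28a arrays. A gap of at least 0.8 between the siGFP arrays with replicate 1 higher was present in 223 rows (0.953%). The log2 fold change was 0.30 in siGFP against untreated (SE 0.28, 95% interval −0.39 to 0.99) and −0.40 in siLin28a against siGFP (SE 0.28, 95% interval −1.09 to 0.29), the largest of the 10 in size. Without siGFP replicate 1 these were −0.10 and 0.00, and without siGFP replicate 2 they were 0.70 and −0.80.

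**Figure D2:**
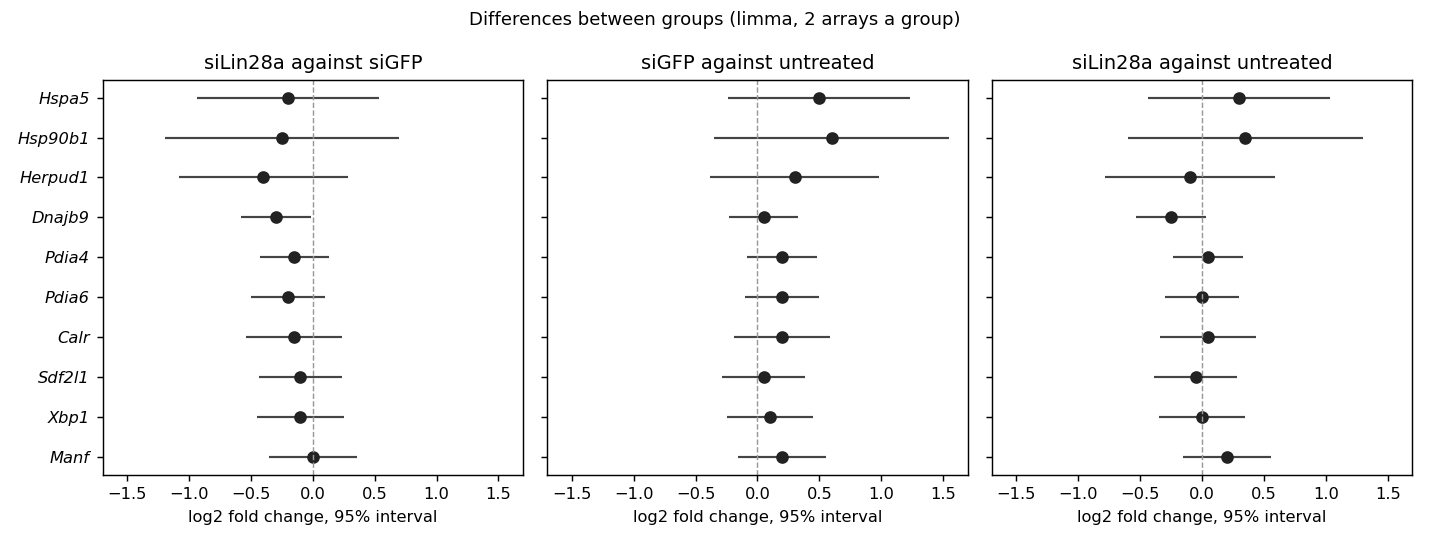
Log2 fold changes of the 10 genes in the 3 comparisons (points) with limma's 95% intervals for a single gene (lines), 2 arrays a group. All intervals include 0 but that of Dnajb9 in siLin28a against siGFP, −0.58 to −0.02, and the widest are those of Hsp90b1, Hspa5 and Herpud1.

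**Figure D3:**
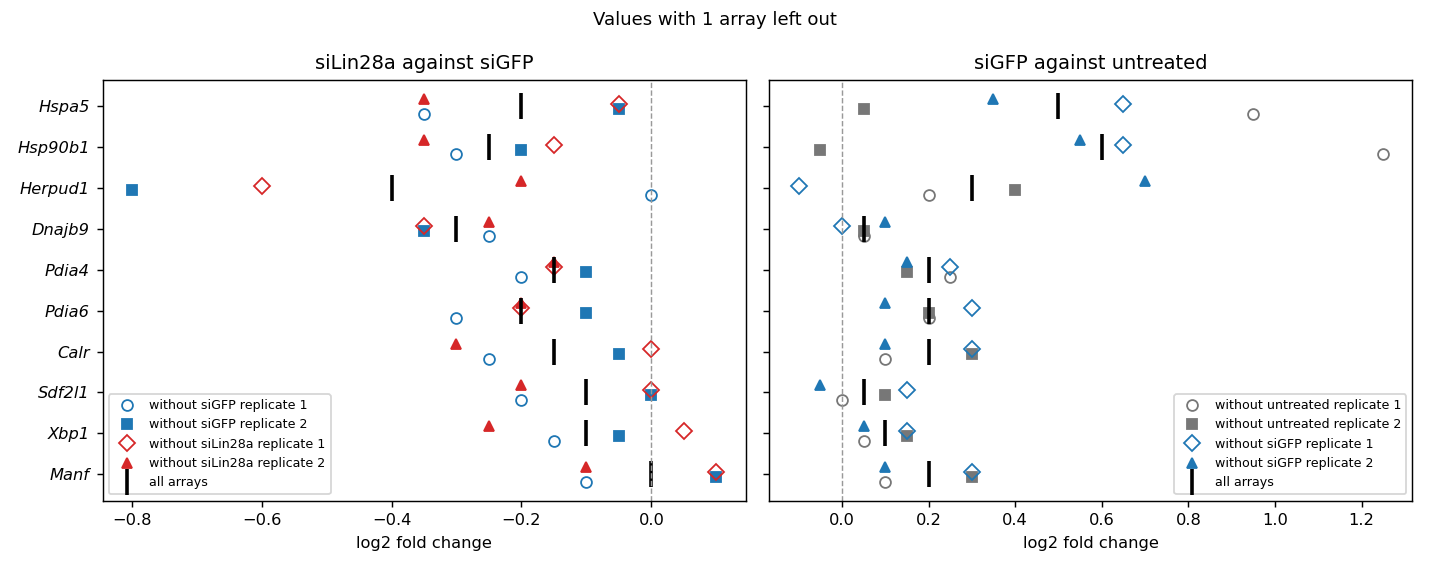
Log2 fold changes of the 10 genes with all arrays (black bars) and with 1 array of the compared groups left out (symbols), for siLin28a against siGFP (left) and siGFP against untreated (right). Hsp90b1 went from 0.60 to −0.05 without untreated replicate 2 and Herpud1 from −0.40 to 0.00 without siGFP replicate 1, whereas Dnajb9 stayed between −0.35 and −0.25 in the left panel.

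The other genes of the response were taken from lists by role, described by counts and medians. Of 23 other ER chaperones and folding enzymes, 19 had a lower and 2 a higher mean in siLin28a against siGFP, with a median of −0.15, and 18 were higher and 4 lower in siGFP against untreated, with a median of 0.10. None passed by limma. Ero1a, the oxidase that recharges disulfide isomerases, was at 9.0 and 9.1 in untreated cells, 9.2 in each siGFP array and 8.8 and 9.0 with siLin28a, a log2 fold change of −0.30 (SE 0.13) in siLin28a against siGFP. Dnajc3, an ER co-chaperone that also inhibits PERK, was at 8.0 and 7.4 in untreated cells, 7.8 and 8.1 with siGFP and 7.5 and 7.8 with siLin28a. Like Hspa5 it was lowest in untreated replicate 2, and its log2 fold change was −0.30 (SE 0.24) in siLin28a against siGFP. The low replicate 2 was not shared by the list. Of the 23 genes, 7 were higher in untreated replicate 1 and 9 in untreated replicate 2. Fkbp2, a prolyl isomerase of the ER, had 0.35 (SE 0.17) and Hyou1, a large Hsp70-like chaperone, had 0.25 (SE 0.14) in siGFP against untreated.

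The sensors and their transcription factors had small differences in mean, which are not shown to be smaller than those of the chaperones. Of 11 measured genes, which include Ern1 (IRE1), Eif2ak3 (PERK) and Atf6, 4 were lower, 4 higher and 3 equal in siLin28a against siGFP, within −0.25 and 0.10 and with a median of 0.00. The low end was Nfyb, a subunit of NF-Y, at 9.2 and 9.3 with siGFP and 8.9 and 9.1 with siLin28a. Creb3l2, a membrane-bound factor related to ATF6, had −0.15 in that comparison and 0.10 in siGFP against untreated. Mbtps1, the protease that first cuts ATF6, had 0.00 in that comparison and −0.15 in siGFP against untreated.

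Of 19 measured genes of ER-associated degradation, 12 were lower, 4 higher and 3 equal in siLin28a against siGFP, with a median of −0.05. Edem3, which trims mannose from misfolded glycoproteins, was at 8.3 and 8.1 in untreated cells, 8.1 in each siGFP array and 7.6 and 7.8 with siLin28a. Both siLin28a arrays lay below the 4 others, with a log2 fold change of −0.40 (SE 0.14, unadjusted p 0.0243 and adjusted p 0.953 by limma) against siGFP and −0.50 against untreated cells. Os9, a lectin that delivers misfolded glycoproteins, was at 7.0 in each untreated array, 7.3 in each siGFP array and 7.3 and 7.2 with siLin28a, a log2 fold change of 0.30 (SE 0.11, unadjusted p 0.0357 and adjusted p 0.961 by limma) in siGFP against untreated. Vcp, the ATPase that extracts the chains, had −0.15 in siLin28a against siGFP. Ubxn4, which anchors Vcp at the ER, was at 8.4 and 7.4 in untreated cells, 8.1 and 8.2 with siGFP and 7.8 and 8.3 with siLin28a, again lowest in untreated replicate 2. Of the 19 genes, 6 were higher in untreated replicate 1 and 8 in untreated replicate 2.

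The PERK and ATF4 branch had another high array than the chaperones did. Of its 15 genes, 13 were higher in siGFP replicate 1 than in siGFP replicate 2, 1 was lower and 1 equal, with a median gap of 0.50. Of the 10 genes described here, 2 were higher in siGFP replicate 1 (Herpud1 and Dnajb9) and 8 in replicate 2, with a median gap of −0.15, and of the 23 other folding genes 4 were higher in replicate 1 and 17 in replicate 2. This was not particular to ER genes. Replicate 2 was higher in 11 of 13 chaperones of the cytosol and mitochondria and replicate 1 in 1. Of the 9 ES cell markers, 8 were higher in replicate 2 and 1 in replicate 1. Of the 11 sensors and their factors, 6 were higher in replicate 1 and 4 in replicate 2. The siLin28a arrays had a like split. Of the 15 branch genes, 11 were higher in siLin28a replicate 1 and 3 in replicate 2. Of the 23 other folding genes, 3 were higher in siLin28a replicate 1 and 19 in replicate 2, and of the 10 genes, 2 and 6. In untreated cells the branch went the other way, with 2 genes higher in replicate 1 and 12 in replicate 2. The share over all rows was not taken. Chac1, which degrades glutathione, was at 6.8 and 6.9 without siRNA, 8.2 and 6.7 after siGFP and 7.2 and 6.6 after siLin28a. Atf4 itself was at 8.0 and 8.4 in untreated cells, 8.6 and 8.2 with siGFP and 8.1 and 7.8 with siLin28a. Ddit4, an inhibitor of mTOR signalling, was in the same order of groups at 7.1 and 7.0, 8.2 and 7.7, and 8.2 and 8.0. Every siRNA array of Ddit4 lay above both untreated arrays. Its log2 fold change was 0.90 in siGFP against untreated (SE 0.19, unadjusted p 0.00293 and adjusted p 0.961 by limma). In siLin28a against untreated it was 1.05 (unadjusted p 0.00132 and adjusted p 0.535 by limma). Herpud1 had its highest value in siGFP replicate 1 and its lowest in siLin28a replicate 2, as did Chac1 and Atf4. The branch's part in the Herpud1 values was not tested. The median of the branch was −0.15 in siLin28a against siGFP and 0.20 in siGFP against untreated.

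**Figure D4:**
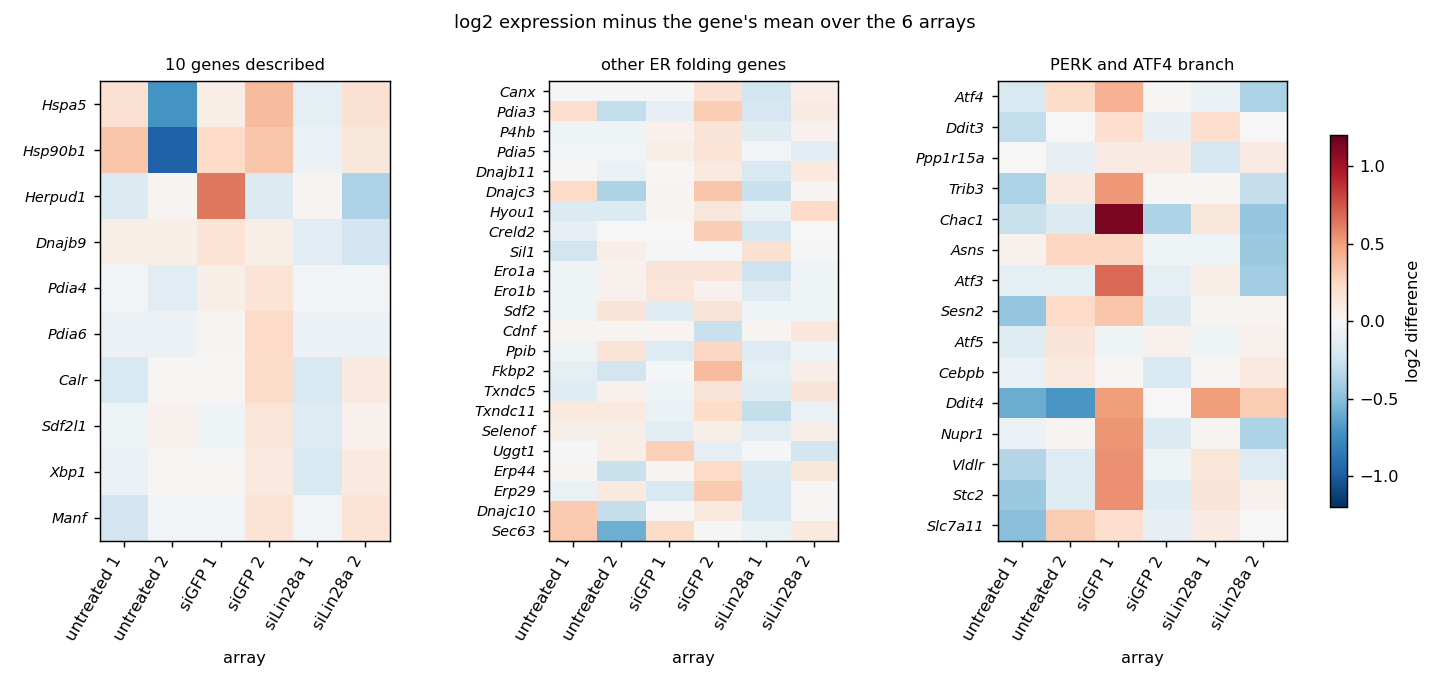
Log2 expression in each array minus the gene's mean over the 6 arrays (colour, red above and blue below), for the 10 genes, the 23 other ER folding genes and the 15 genes of the PERK and ATF4 branch. Herpud1 and most of the right panel are highest, alone or tied, in siGFP replicate 1, where 13 of 15 branch genes exceed replicate 2, and 8 of the 10 genes are higher in siGFP replicate 2 than in replicate 1.

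Chaperones outside the ER were set beside these lists. Of 13 measured chaperones of the cytosol and mitochondria, 8 were lower, 2 higher and 3 equal in siLin28a against siGFP, with a median of −0.10, equal to that of rows in the 10 genes' range of level, and the median in siGFP against untreated was 0.05. Hspa4, an exchange factor of Hsp70, was at 11 and 10.4 in untreated cells, 10.8 and 11 with siGFP and 10.6 and 10.8 with siLin28a. Hsph1, its relative, was in the same order of groups at 9.6 and 9.1, 9.4 and 9.8, and 9.1 and 9.8. A lower untreated replicate 2 was thus also seen outside the ER. Of the 13 genes, 8 were higher in untreated replicate 1 and 4 in untreated replicate 2. The heat-inducible Hspa1a was between 5.6 and 6.1 in all arrays.

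**Figure D5:**
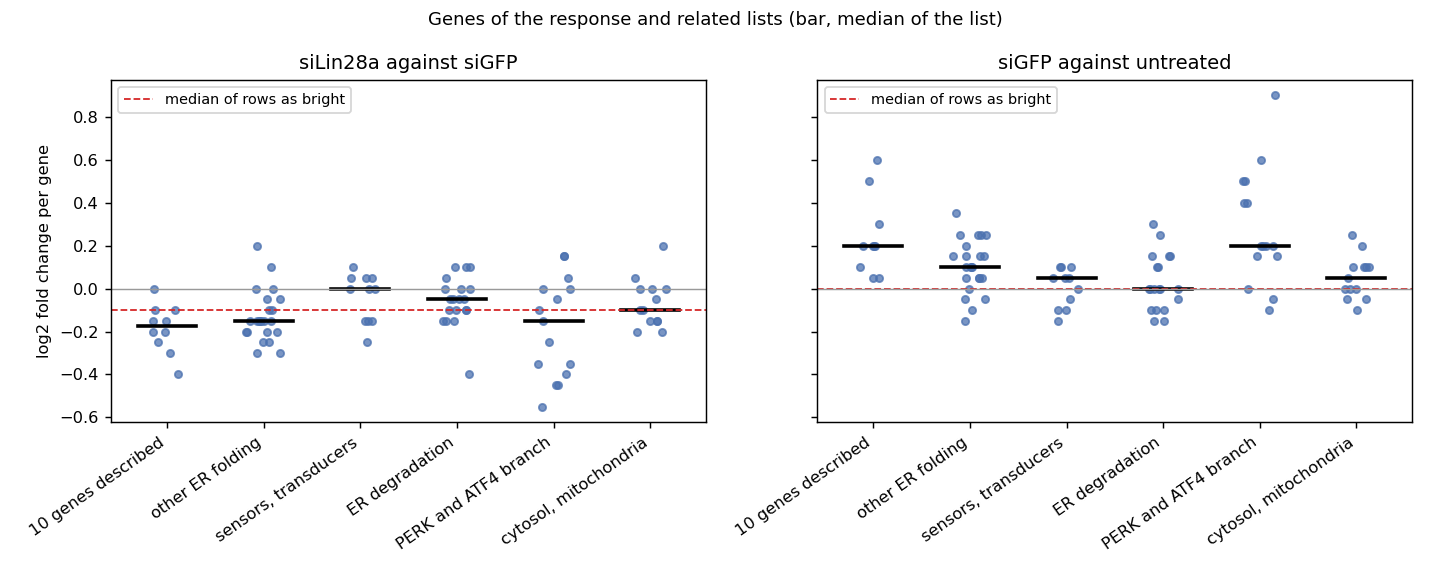
Log2 fold changes of single genes (points, spread sideways for legibility) by list, with the median of each list (bars) and the median of rows in the 10 genes' range of mean level (dashed line), for siLin28a against siGFP (left) and siGFP against untreated (right). The 10 genes have medians of −0.175 and 0.20, the 23 other ER folding genes −0.15 and 0.10, and the dashed line lies at −0.10 and 0.00.

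The median profile of the 10 genes over the 6 arrays, each gene centred on its mean, spanned 0.26 log2 units, from −0.09 in siLin28a replicate 1 to 0.17 in siGFP replicate 2. In 8 of the 10 genes siGFP replicate 2 was, alone or tied, the highest array. The share of all rows with this array highest was not taken. Among 8313 other rows with 1 symbol, a mean of at least 6 and at least the same span, the closest to this profile by root mean square difference over the 6 arrays were P4hb, Atp9b and Fbxo9 (0.033 each), Tapt1 and Rcc1l (0.038 each). P4hb, the founding protein disulfide isomerase, was at 11 in each untreated array, 11.1 and 11.2 with siGFP and 10.9 and 11.1 with siLin28a. Of the 10 genes, Xbp1 lay closest to the profile (0.049) and Hsp90b1 farthest (0.435).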

How the data were processed

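Per the labels' protocols, total RNA of A3-1 cells was labelled with biotin for Affymetrix arrays. Per the submitters' processing notes, the authors used Affymetrix Expression Console with RMA (background correction, quantile normalization, probe set summary) for the deposited log2 values; no version or build is stated there. Of 35556 rows, 23410 had an annotated gene and were tested; 21797 named 1 symbol. R 4.3.3 with limma 3.58.1 (lmFit, eBayes) was fitted to all 6 arrays in 3 groups, with 3 residual and 3.19 prior degrees of freedom, and adjusted by Benjamini-Hochberg over 23410 rows at 0.05. It was tested on simulated data. The brightest row stood for a gene. Promoters came from RefSeq (GRCm38.p6). The genes, lists and tests were chosen with earlier results of these data known. Named were the 10 genes, Lin28a, 2 genes of each list with the largest difference in size in siLin28a against siGFP and 2 in siGFP against untreated (ties by p), the 5 rows closest to the genes' median profile, and markers. Alternatives were a replicate block, leaving out each array, 3 further normalizations, other priors, only 4 arrays, a filter at 6, all rows, and the mean of a gene's rows. The number of arrays limits the precision.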

Additional observations from a re-analysis of the deposited data

How the results depend on the processing

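Of 480 values of the 10 genes under 16 alternatives and 3 comparisons, 466 kept their direction or were 0 on either side, and 14 reversed. Many of the 466 could not reverse, because their setting leaves the log2 fold change unaltered. These settings are the replicate block, the other priors, fitting only the arrays compared, the filter and all rows. The same holds for leaving out an array of a group not compared and, but for Pdia4, the mean of a gene's rows. The 466 therefore do not measure how stable the directions are. Of the 480 values, 0 passed the threshold, with a lowest adjusted p of 0.507 by limma. That lowest p came from the replicate block; the replicate numbers are not known to pair the arrays (their deviations correlated at 0.36 between siGFP and siLin28a, 0.15 between untreated and siGFP and −0.04 between untreated and siLin28a over rows), and with the block 0 rows passed in each comparison and the medians were −0.175, 0.20 and 0.025. Without 1 array, the median of the 10 genes ranged from −0.225 to −0.075 in siLin28a against siGFP, from 0.10 to 0.275 in siGFP against untreated and from −0.025 to 0.10 in siLin28a against untreated, where it was 0.1292 with a further quantile normalization. Rows past the threshold numbered 1 after cyclic loess and 1 with a robust prior in siLin28a against siGFP, and 5 and 7 in siLin28a against untreated; none was one of the 10 genes. In siGFP against untreated, reversals were Herpud1 −0.10 without siGFP replicate 1, Hsp90b1 −0.05 without untreated replicate 2, Sdf2l1 −0.05 without siGFP replicate 2 and Pdia4 −0.025 with the mean of its rows. In siLin28a against untreated they were Calr −0.05 without untreated replicate 1 and −0.10 without siLin28a replicate 2, Herpud1 0.10 without siLin28a replicate 2, Hsp90b1 −0.30 and Hspa5 −0.15 without untreated replicate 2, Pdia4 −0.05 with the mean of its rows, and Sdf2l1 0.05 without siLin28a replicate 1, 0.0417 after quantile normalizing again and 0.0452 after cyclic loess. In siLin28a against siGFP, Xbp1 was 0.05 without siLin28a replicate 1. Without 1 array the reversing values ranged, in siGFP against untreated, from −0.10 to 0.70 for Herpud1, −0.05 to 1.25 for Hsp90b1 and −0.05 to 0.15 for Sdf2l1. In siLin28a against untreated they ranged from −0.10 to 0.20 for Calr, −0.30 to 0.10 for Herpud1, −0.30 to 1.00 for Hsp90b1, −0.15 to 0.75 for Hspa5 and −0.15 to 0.05 for Sdf2l1, and in siLin28a against siGFP from −0.25 to 0.05 for Xbp1. The cause was not tested where a normalization reversed a value; elsewhere it lies in the setting itself, the array left out or, for Pdia4, the dimmer row averaged in.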
